A study of Mus musculus with 40 samples.

Results

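The response of the gastrocnemius, a calf muscle of mixed fibers, to a high fat diet was followed across genes. It rested on the 20 arrays whose labels name the gastrocnemius, 10 from mice on a high fat diet (HFD) and 10 from mice on a low fat diet (LFD), out of 40 arrays in all. The other 20 arrays hold the quadriceps of the same mice. Of 16475 probe sets, 1 for each gene, 6479 (39.3%) were tested, namely those whose signal intensity averaged over 20 on the 40 arrays.

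All mice were male and of 1 inbred strain, written C56BL/6J in the labels and C57BL/6J in the paper, and none carried a named allele. They were 9 weeks old when a run-in of 3 weeks on LFD began, after which they were assigned at random to LFD, with 10 kcal% fat, or HFD, with 45 kcal% fat, for 8 weeks. Both diets held palm oil, both groups had had the same run-in LFD, and the mice were 20 weeks old and fasted when the muscles were dissected. Each array held RNA of 1 muscle of 1 mouse. The labels number the mice, and the extraction text of all 40 arrays names only the quadriceps, so that the muscle was taken from the title, the source name and the tissue label.

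Muscle burns glucose or fatty acids, and on a diet rich in fat it takes up and oxidizes more of the latter. Fatty acids released from lipoproteins by lipoprotein lipase enter the fiber through CD36, are bound to coenzyme A, pass into mitochondria on carnitine, and are shortened there by the enzymes of beta-oxidation, while the surplus is stored as triglyceride in lipid droplets. Many genes of this route are known targets of the PPAR transcription factors, which are activated by fatty acids.

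The arrays were alike in their distribution, with a median signal intensity of 8.8 to 9.4 and between 38.5% and 39.5% of the probe sets over 20. Markers of skeletal muscle fibers were high on all 20 arrays, with *Acta1*, the skeletal muscle actin, between 25309 and 30101. One LFD mouse, number 141, stood apart in genes that mark the type of muscle. Its gastrocnemius array had 205.3 for *Tbx1*, a T-box transcription factor of high expression in the quadriceps, against 19.1 to 56.3 on the other 19 gastrocnemius arrays. It had 104.8 for *Hoxd9*, a homeobox gene of high expression in the gastrocnemius, against 165.9 to 293.8. On the quadriceps array of this mouse *Tbx1* was at 242.0, below the 354.0 to 634.0 of the other 19, and *Hoxd9* at 99.0, above their 11.7 to 40.1. The overall counts in each muscle are therefore given with and without mouse 141. Of the gene lists with members that rose, fatty acid uptake went from 2 to 1 without this mouse, and the other lists kept their counts.

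A gene was said to have risen or fallen when its FDR was under 0.05, and to be differentially expressed when its fold change was also over 1.3. Fold changes are ratios of geometric means, HFD over LFD, and log2 differences are HFD minus LFD with their standard error (SE). Between the diets 49 genes had an FDR under 0.05, which was 0.756% of those tested. Of these, 37 rose (0.571%) and 12 fell (0.185%). The criteria for differential expression were met by 20 genes (0.309%), 17 of them higher (0.262%) and 3 lower (0.0463%) on HFD. At an unadjusted p under 0.05 there were 561 genes (8.66%), and 67 (1.03%) had a fold change over 1.3 in either direction whatever their FDR. The median log2 difference of all tested genes was -0.016, and 42.8% of them lay above 0. Without mouse 141, 33 genes rose and 7 fell, and 16 were differentially expressed upward and 3 downward. In a fit of all 40 arrays in 4 groups, 11 genes were differentially expressed upward, both with the mouse as a replicate block and without it. That fit takes the spread between mice over both muscles. Of the 49 genes, 36 kept their FDR with the block and 39 without it. The FDR of *Lpl* was 0.307 with the block and 0.317 without, and that of *Csrp3* 0.418 and 0.44. Values given below with the replicate block come from this fit. With the arrays weighted by their quality, 75 genes rose and 62 fell, and 32 were differentially expressed upward and 17 downward, so that the excess of genes that rose depends on that choice.

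The changes were mostly small. The signals of all 10 HFD mice lay outside those of all 10 LFD mice for 6 of 6479 genes (0.0926%): *Hsdl2*, *Acadl*, *Acadm*, *Acaa2* and *Decr1* were higher (0.0772%) and *Il12a* was lower (0.0154%). In muscle tissue, fewer cells of a type and less RNA per cell cannot be told apart. The 49 genes by mouse are shown in the heat map, in which LFD mouse 148 lay near the HFD mice for several genes. Without it, 34 genes were differentially expressed upward and 5 downward, among them 19 of the 20.

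**Figure D1:**
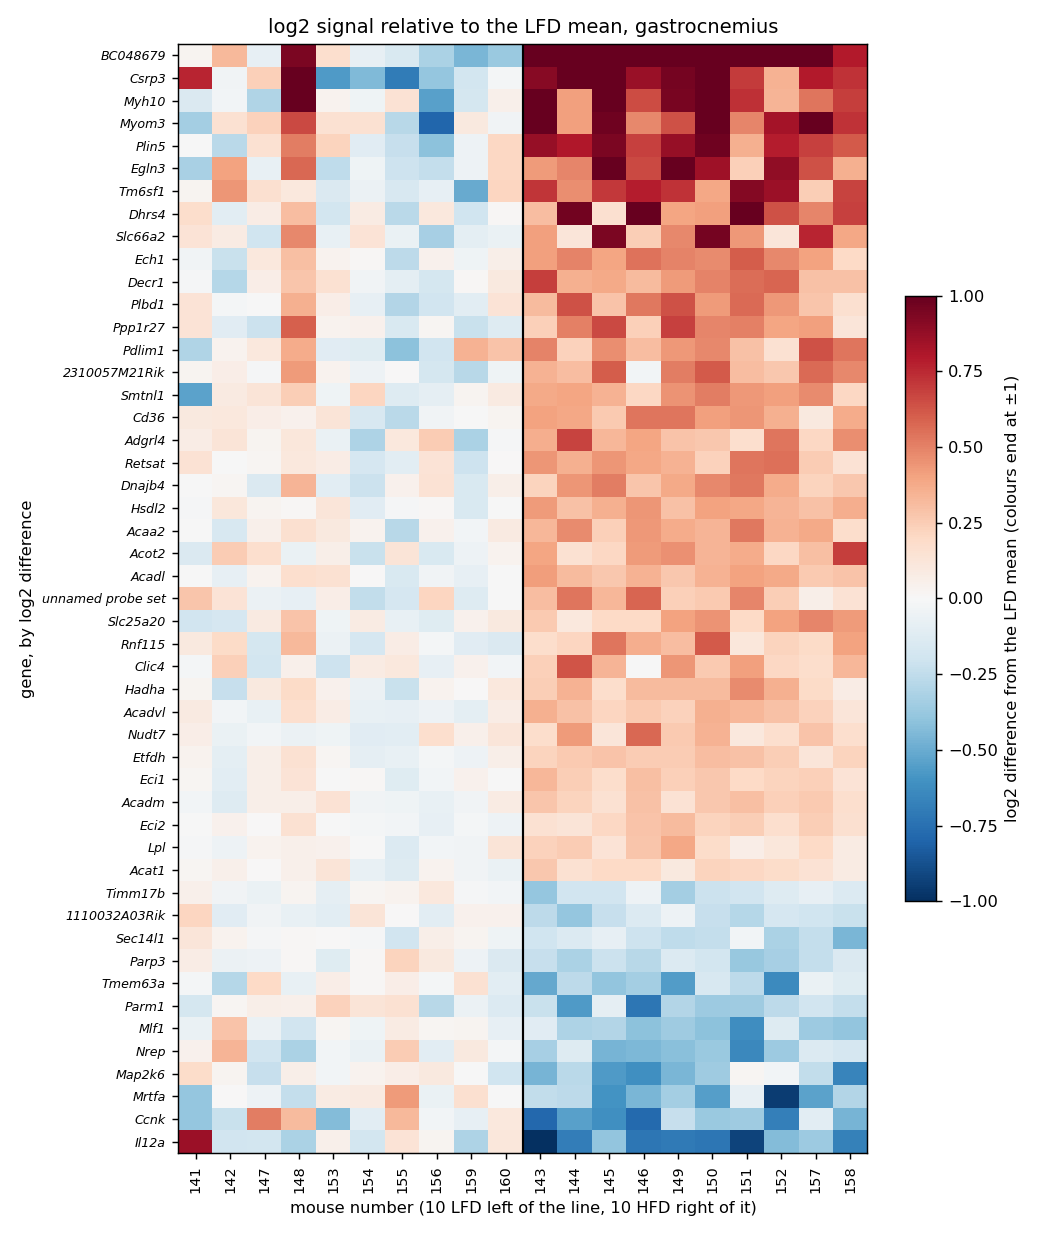
Each row is 1 of the 49 genes with an FDR under 0.05, each column 1 mouse, and the colour is the log2 signal intensity in the gastrocnemius minus the mean of the 10 LFD mice (red higher, blue lower). The 37 genes that rose stand above the 12 that fell, and LFD mouse 148 is red in *BC048679*, *Csrp3* and *Myh10*.

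The gene with the lowest FDR was *Hsdl2*, a peroxisomal enzyme of the short-chain dehydrogenase family. Its signal intensity lay between 422.6 and 509.8 in LFD mice (median 472) and between 574.3 and 637.7 in HFD mice (median 603). The groups did not overlap, and the fold change was 1.28 (log2 difference 0.36, SE 0.04, FDR 8.3e-05).

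**Figure D2:**
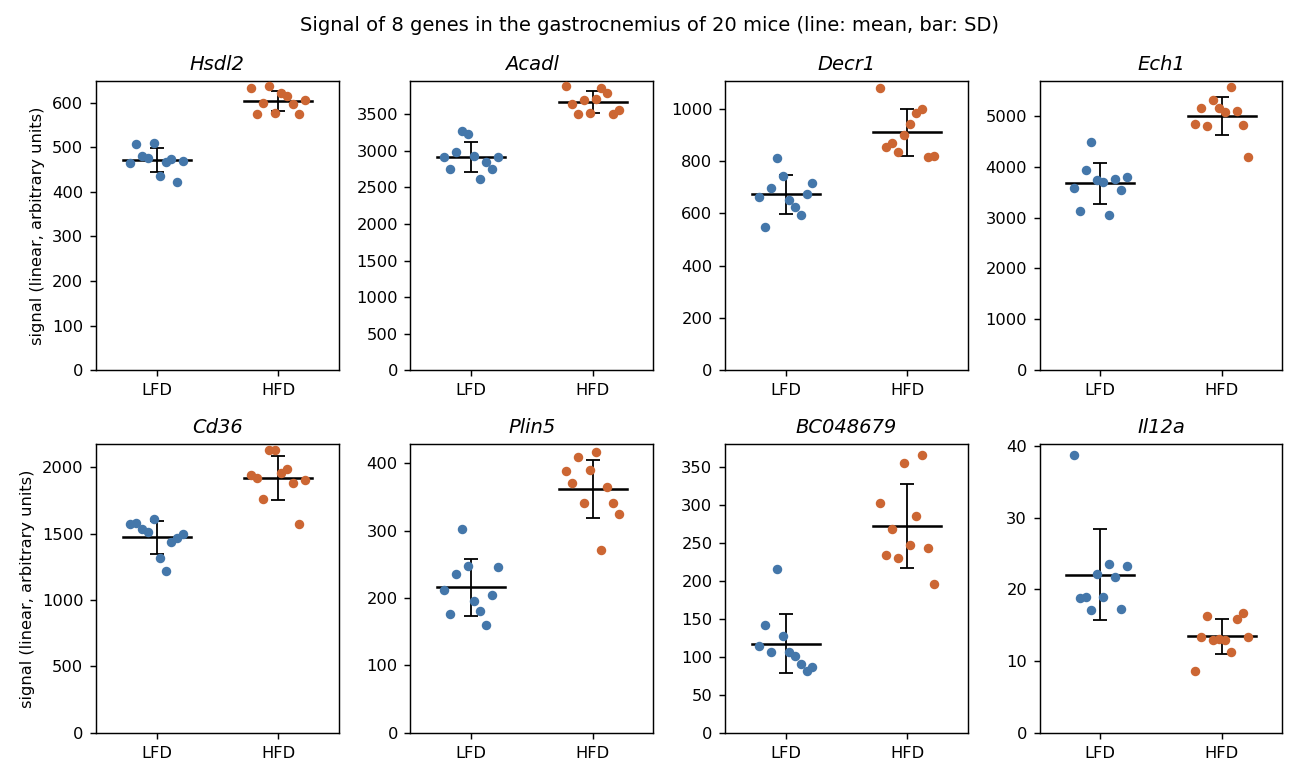
Signal intensity on a linear scale for 8 genes in the gastrocnemius, 1 point per mouse, with the mean (line) and the SD (bar) of 10 LFD and 10 HFD mice. The diets are separate for *Hsdl2*, *Acadl*, *Decr1* and *Il12a*, and overlap by 1 to a few mice for *Ech1*, *Cd36*, *Plin5* and *BC048679*.

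At the entry of fatty acids into the fiber, 2 of 11 tested genes rose. *Cd36*, the fatty acid transporter of the cell surface, was at 1216 to 1610 in LFD mice (median 1504) and at 1569 to 2131 in HFD mice (median 1931). Of the HFD mice, 9 lay above all LFD mice, and the log2 difference was 0.38 (SE 0.06, FDR 0.00181). *Lpl*, which encodes lipoprotein lipase, was at 3552 to 4261 (median 3884) on LFD and at 4101 to 5110 (median 4454) on HFD. Its groups overlapped, with 7 HFD mice above all LFD mice, and its log2 difference was 0.19 (SE 0.04, FDR 0.0478). That FDR was lost, at 0.05 or above, in 16 of the 20 fits that each left out 1 mouse, and was 0.307 with the mouse as a replicate block. The transport protein *Slc27a1* (0.30, SE 0.13) and *Angptl4*, an inhibitor of lipoprotein lipase (0.35, SE 0.21), did not pass, with an FDR of 0.477 and 0.723. The acyl-CoA synthetases that were tested under a name, *Acsl3*, *Acsl4*, *Acsl5* and *Acsl6*, had log2 differences between -0.07 and 0.07. Of the 16 genes written for this list, 12 were found by name on the array. Unnamed probe sets are not counted, so that a synthetase may be missing. The median of the 11 genes was 0.09.

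For the passage into mitochondria, 1 of 5 tested genes rose. It was *Slc25a20*, the exchanger that carries acylcarnitines across the inner membrane. Its signal intensity lay between 719.5 and 1001 on LFD (median 822) and between 884.6 and 1154 on HFD (median 1036). The groups overlapped, with 5 HFD mice above all LFD mice, and the log2 difference was 0.31 (SE 0.06, FDR 0.0178). *Cpt2*, the carnitine palmitoyltransferase of the inner membrane, was at 0.27 (SE 0.07) with an FDR of 0.0783, and *Cpt1b*, the muscle form of the outer membrane, at 0.18 (SE 0.09) with 0.563. All 5 log2 differences were above 0, with a median of 0.18. *Cpt1a*, the form of liver and other tissues, was under the signal limit, at 20.0 ± 2.04 on LFD and 19.4 ± 2.27 on HFD (SD, n = 10).

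The promoters of the genes that rose or fell were searched for the direct repeat bound by PPAR, and *Cd36* and *Slc25a20* were the genes among them with a match. The letters AGGTCA, any base and AGGTCA again were sought on both strands with up to 2 mismatches from 250 bases before to 30 bases after the start in RefSeq (GRCm38.p6). Counted by gene, a match stood in 2 of the 30 genes with a promoter entry that rose (6.67%) and in none of the 11 that fell, against 3.21% of the 5105 tested genes and 4.11% of all 27025 genes in the table. Counted by promoter, it stood in 3.58% of all 32851. In the list of mitochondrial beta-oxidation, *Echs1* and *Etfa*, which did not pass the test, had one. The letters overlap with the single repeat AGGTCA, which stood without mismatch in 4 of the 30 (13.3%), in 13.9% of the tested genes and in 17.2% of all genes (15.3% of all promoters). A match is a likeness of letters and not a shown binding site. The promoters of both genes are given with the match in capitals, and those of *BC048679*, with the greatest fold change, and *Hsdl2*, with the lowest FDR, in which no match was found, for comparison. All read 5′ to 3′ on the strand of the gene. *Slc25a20* lies on the plus strand at chr9:108661886-108662165, with its match starting 7 bases into the transcript and on the same strand. *Cd36* lies on the minus strand at chr5:17835867-17836146, with its match on the opposite strand and starting at position -63. *BC048679* lies on the minus strand at chr7:81498301-81498580 and *Hsdl2* on the plus strand at chr4:59581313-59581592.
Slc25a20: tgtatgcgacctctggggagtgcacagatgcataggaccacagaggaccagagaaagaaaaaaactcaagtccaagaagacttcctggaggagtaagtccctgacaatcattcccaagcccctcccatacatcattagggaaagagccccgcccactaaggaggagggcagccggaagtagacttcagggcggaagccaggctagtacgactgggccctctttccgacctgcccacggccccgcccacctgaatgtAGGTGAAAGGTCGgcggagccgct
Cd36: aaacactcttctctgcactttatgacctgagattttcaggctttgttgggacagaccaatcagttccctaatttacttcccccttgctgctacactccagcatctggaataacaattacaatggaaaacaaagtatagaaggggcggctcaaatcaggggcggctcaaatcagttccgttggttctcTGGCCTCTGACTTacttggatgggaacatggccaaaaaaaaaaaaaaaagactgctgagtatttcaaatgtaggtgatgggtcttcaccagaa
BC048679: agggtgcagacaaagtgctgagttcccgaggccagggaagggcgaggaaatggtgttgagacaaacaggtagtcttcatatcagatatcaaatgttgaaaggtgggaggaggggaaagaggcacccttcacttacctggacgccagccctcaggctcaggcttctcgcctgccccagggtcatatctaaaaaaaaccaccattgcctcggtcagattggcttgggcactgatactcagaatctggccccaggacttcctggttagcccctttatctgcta
Hsdl2: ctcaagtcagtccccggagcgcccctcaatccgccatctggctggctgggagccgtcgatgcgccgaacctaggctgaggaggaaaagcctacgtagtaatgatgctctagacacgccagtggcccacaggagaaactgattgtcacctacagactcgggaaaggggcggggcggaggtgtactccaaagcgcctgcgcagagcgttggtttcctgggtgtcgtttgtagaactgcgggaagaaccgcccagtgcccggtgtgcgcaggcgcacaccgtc

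Mitochondrial beta-oxidation was the list with the most genes that rose. Of its 18 tested members 9 rose, none fell and 9 did not pass, against 0.571% of all tested genes that rose. Log2 differences were above 0 for 17 of 18, with a median of 0.22. Averaged over the 18 genes, the log2 signal intensity lay between -0.13 and 0.12 of the LFD mean in LFD mice and between 0.10 and 0.30 above it in HFD mice. The 9 genes that rose kept an FDR under 0.05 whichever of the 20 mice was left out.

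The first step of each round is taken by acyl-CoA dehydrogenases, which differ in the length of the fatty acid they accept. *Acadvl*, for very long chains, was at 2230 to 2682 on LFD (median 2320) and at 2590 to 3055 on HFD (median 2886). It had 9 HFD mice above all LFD mice and a log2 difference of 0.27 (SE 0.04, FDR 0.0027). *Acadl*, for long chains, was at 2615 to 3273 on LFD (median 2911) and at 3497 to 3891 on HFD (median 3667), without overlap. Its log2 difference was 0.33 (SE 0.04, FDR 0.000332). *Acadm*, for medium chains, was at 2443 to 2950 on LFD (median 2609) and at 2951 to 3292 on HFD (median 3175). The highest LFD and the lowest HFD mouse all but touched, and the log2 difference was 0.23 (SE 0.04, FDR 0.00461). *Acads*, for short chains, had a wide spread, with 100.9 to 288.2 on LFD and 144.4 to 409.0 on HFD, and did not pass (0.35, SE 0.22, FDR 0.754). The electrons of these enzymes are passed on by the flavoprotein *Etfa* and *Etfb* (0.17 each, FDR 0.14 and 0.352) to its dehydrogenase *Etfdh*. *Etfdh* was at 1829 to 2176 on LFD (median 1954) and at 2121 to 2419 on HFD (median 2330), with 9 HFD mice above all LFD mice and a log2 difference of 0.25 (SE 0.04, FDR 0.00194).

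Of the later steps, *Hadha*, the alpha subunit of the trifunctional protein, rose with a log2 difference of 0.28 (SE 0.06, FDR 0.0201), while *Hadhb*, its beta subunit, was at 0.18 (SE 0.06, FDR 0.284). *Hadha* lay between 1361 and 1818 on LFD and between 1679 and 2207 on HFD, with 7 HFD mice above all LFD mice. *Acaa2*, the thiolase that ends the round, was at 739.6 to 1004 on LFD (median 924) and at 1017 to 1293 on HFD (median 1152), without overlap and with a log2 difference of 0.36 (SE 0.06, FDR 0.00176). The dehydrogenase *Hadh* (0.17, SE 0.04, FDR 0.0805) and the hydratase *Echs1* (0.02, SE 0.08, FDR 0.977) did not pass.

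Unsaturated fatty acids need auxiliary enzymes that move or reduce double bonds, and those among the genes that rose are described here. *Decr1*, the dienoyl-CoA reductase, was at 548.6 to 810.6 on LFD (median 668) and at 817.7 to 1080 on HFD (median 884). The diets did not overlap, and with a fold change of 1.35 (log2 difference 0.44, SE 0.07, FDR 0.00176) it was the only one of the 18 over the fold change of 1.3. The isomerases *Eci1* and *Eci2* rose by 0.24 (SE 0.04, FDR 0.00271) and 0.21 (SE 0.04, FDR 0.00496). *Eci1* was at 933.2 to 1119 on LFD and at 1118 to 1281 on HFD, and *Eci2* at 551.2 to 649.3 and 638.6 to 727.6, with 9 and 8 HFD mice above all LFD mice. *Ech1*, a dienoyl-CoA isomerase of mitochondria and peroxisomes, was at 3054 to 4493 on LFD (median 3717) and at 4198 to 5560 on HFD (median 5086). It had 9 HFD mice above all LFD mice and a fold change of 1.37 (log2 difference 0.45, SE 0.06, FDR 0.000562).

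**Figure D3:**
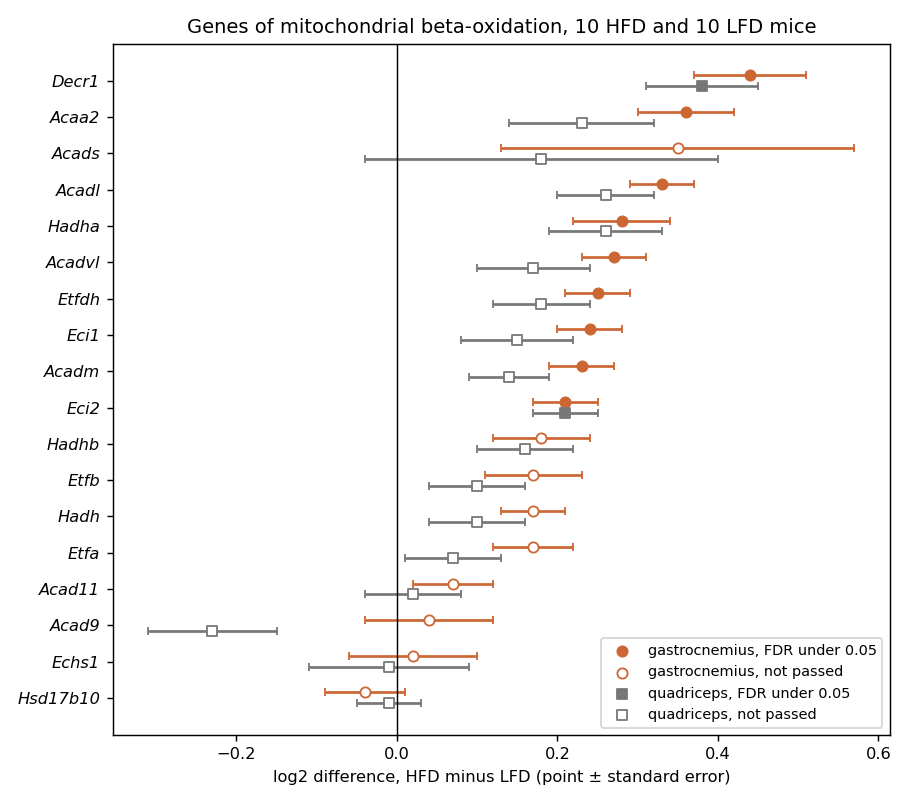
Log2 differences between HFD and LFD with their SE for the 18 tested genes of mitochondrial beta-oxidation, in the gastrocnemius (circles) and the quadriceps (squares) of the same mice, filled where the FDR was under 0.05. In the gastrocnemius 9 are filled and 17 lie above 0, and in the quadriceps *Decr1* and *Eci2* are filled.

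*Ech1* was the only one of 14 tested genes of peroxisomal oxidation that rose. Catalase, *Cat*, had 0.26 (SE 0.08, FDR 0.155), the multifunctional enzyme *Hsd17b4* 0.15 (SE 0.05, FDR 0.28) and *Ehhadh*, the second multifunctional enzyme, -0.30 (SE 0.12, FDR 0.449). Outside the list, other metabolic enzymes rose besides *Hsdl2*. *Dhrs4*, a reductase of carbonyl compounds, was at 84.0 to 125.1 on LFD (median 104) and at 112.8 to 236.0 on HFD (median 149). It had 8 HFD mice above all LFD mice and a fold change of 1.56 (log2 difference 0.64, SE 0.12, FDR 0.0101). *Nudt7*, which cleaves coenzyme A in peroxisomes, was at 0.26 (SE 0.06, FDR 0.0403), but lost this FDR in 10 of the 20 fits without 1 mouse and was at 0.106 with the mouse as a replicate block. *Retsat*, the retinol saturase of the endoplasmic reticulum, rose by 0.37 (SE 0.06, FDR 0.00211), with 280.0 to 358.3 on LFD and 357.7 to 475.2 on HFD.

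*Acot2*, a thioesterase that frees fatty acids from coenzyme A in mitochondria, was the only one of 10 tested genes of the fuel switch that rose. It lay between 119.5 and 166.0 on LFD (median 139) and between 154.9 and 224.9 on HFD (median 178), with 7 HFD mice above all LFD mice. Its log2 difference was 0.35 (SE 0.07, FDR 0.0129). The near-identical paralog *Acot1* was under the signal limit, at 8.47 ± 1.98 on LFD and 11.9 ± 2.15 on HFD (SD, n = 10), and a signal of probes that match both copies cannot be told apart here, so that the value of *Acot2* is uncertain. *Pdk4*, the kinase that shuts off pyruvate dehydrogenase, was at 7158 to 9982 on LFD and at 6624 to 9079 on HFD (-0.03, SE 0.07, FDR 0.962). *Ucp3*, an uncoupling protein of muscle, was at 547.2 to 1643 and 482.8 to 1540 (-0.10, SE 0.22, FDR 0.96). The ranges of both diets overlapped widely for *Pdk4* and *Ucp3*. *Bdh1*, of ketone body metabolism, had 0.42 (SE 0.13) without passing (FDR 0.207).

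At the lipid droplet, *Plin5* rose and 18 of 19 tested genes did not pass. *Plin5* encodes the perilipin that links droplets to mitochondria in oxidative tissues. It was at 159.4 to 302.6 on LFD (median 208) and at 271.4 to 416.0 on HFD (median 368), with 9 HFD mice above all LFD mice. The fold change was 1.69 (log2 difference 0.76, SE 0.10, FDR 0.000332). The perilipins *Plin2* and *Plin4* had log2 differences of 0.11 (SE 0.10, FDR 0.851) and 0.04 (SE 0.08, FDR 0.949). *Dgat2*, which adds the last fatty acid to triglycerides, was at 0.51 (SE 0.13, FDR 0.0614), the monoglyceride lipase *Mgll* at 0.29 (SE 0.07, FDR 0.081) and the acyltransferase *Agpat3* at 0.36 (SE 0.10, FDR 0.0964). *Pnpla2*, the triglyceride lipase, was at 0.13 (SE 0.07, FDR 0.681). The median of the list was 0.08. In all, 15 of the 77 tested genes of the 6 lists from uptake to the droplet rose, against 0.571% of all tested genes. Mitochondrial beta-oxidation held 9 of the 15, and each other list held 1 or 2.

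No gene of the pathways that use the products of beta-oxidation passed the test. None of 67 tested genes of the respiratory chain and none of 19 of the citric acid cycle passed, with medians of -0.01 and 0.03 and the smallest FDR at 0.577 and 0.521. Log2 differences of the respiratory chain lay between -0.09 and 0.09. Averaged over its genes, the log2 signal intensity per mouse was between -0.10 and 0.06 of the LFD mean on LFD and between -0.11 and 0.08 on HFD. Regulators of the PPAR and PGC-1 family did not pass either (0 of 18, median -0.03). *Ppargc1a*, the coactivator PGC-1alpha, was at 143.5 to 382.3 on LFD and at 169.8 to 389.1 on HFD (0.14, SE 0.18, FDR 0.918). *Ppara* was at 49.9 to 101.7 and 46.9 to 118.9 (0.22, SE 0.16, FDR 0.801), and *Rxrg*, a partner of PPAR, had the smallest FDR of the list at 0.371 (-0.16, SE 0.06). *Ppard* was under the signal limit, at 6.63 ± 0.678 on LFD and 6.41 ± 0.547 on HFD (SD, n = 10).

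Glycolysis and glycogen metabolism (0 of 21 genes, median -0.03) and insulin signaling and glucose uptake (0 of 15, median 0.09) held no gene that passed. *Slc2a4*, the insulin-dependent glucose transporter GLUT4, was at 1602 to 2574 on LFD and at 1236 to 2500 on HFD (-0.06, SE 0.12, FDR 0.955). *Grb14*, an inhibitor of the insulin receptor, came nearest with 0.33 (SE 0.08, FDR 0.0614). It was at 177.2 to 246.8 on LFD and at 229.1 to 356.9 on HFD. In the degradation of branched-chain amino acids 1 of 23 genes rose, *Acat1*, the mitochondrial acetoacetyl-CoA thiolase that also serves ketone bodies (0.18, SE 0.04, FDR 0.0372). The median of that list was -0.03, and *Acat1* lost its FDR in 11 of the 20 fits without 1 mouse and was at 0.055 with the mouse as a replicate block.

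**Figure D4:**
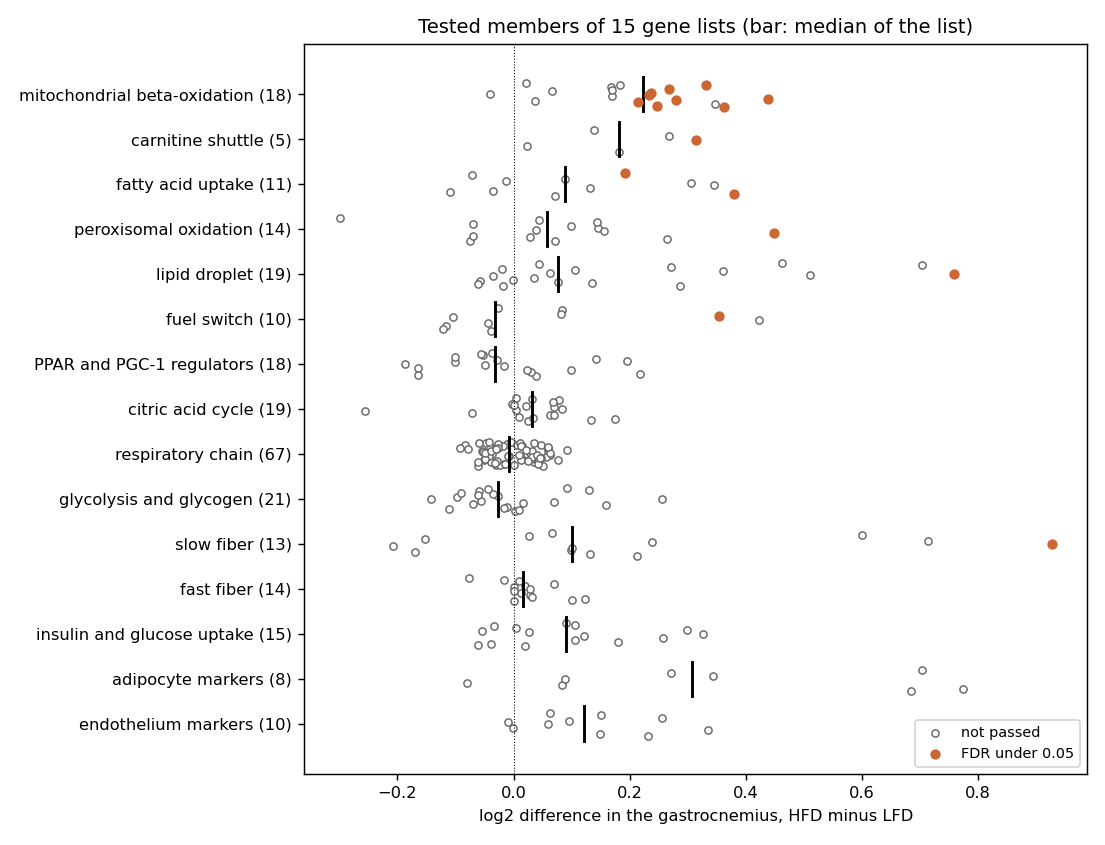
Log2 differences in the gastrocnemius for the tested members of 15 lists (1 point per gene, number of genes in brackets), filled where the FDR was under 0.05, with the median of each list as a bar. The points of the respiratory chain lie within -0.09 to 0.09, and 9 of 18 of mitochondrial beta-oxidation are filled.

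Among the other genes that rose, *Csrp3*, the muscle LIM protein of the Z-disc, was at 741.6 to 3035 on LFD (median 1118) and at 1530 to 3198 on HFD (median 2230). LFD mice 148 and 141, at 3035 and 2047, lay within the range of the HFD mice, and 2 HFD mice were above all LFD mice. The fold change was 1.90 (log2 difference 0.93, SE 0.21, FDR 0.042), and the FDR was lost in 15 of the 20 fits without 1 mouse. It was 0.0683 without HFD mouse 149, 0.00108 without mouse 148, 0.019 without mouse 141 and 0.418 with the mouse as a replicate block. *Myh10*, a nonmuscle myosin heavy chain, was at 150.2 to 438.8 on LFD (median 214) and at 277.4 to 582.5 on HFD (median 358). Mouse 148 held the highest LFD signal, and the fold change was 1.76 (log2 difference 0.81, SE 0.16, FDR 0.0156). *Myom3*, a myomesin of the M-band, was at 32.5 to 89.4 on LFD (median 61.5) and at 74.9 to 133.4 on HFD (median 97.0). It had 6 HFD mice above all LFD mice and a fold change of 1.73 (log2 difference 0.79, SE 0.15, FDR 0.00677). *Pdlim1*, which binds alpha-actinin (0.40, SE 0.10, FDR 0.0499), *Smtnl1*, a smoothelin-like protein (0.38, SE 0.08, FDR 0.0163), and *Ppp1r27*, a regulator of protein phosphatase 1 (0.42, SE 0.09, FDR 0.0328), rose too. *Pdlim1* lost its FDR in 16 and *Ppp1r27* in 10 of the 20 fits without 1 mouse. With the mouse as a replicate block the FDR of *Myh10* was 0.169, that of *Myom3* 0.123, that of *Pdlim1* 0.4 and that of *Smtnl1* 0.229, so that *Ppp1r27*, at 0.0295, was the one of these 6 genes that passed.

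*Csrp3* was the only one of 13 tested genes of slow fibers that passed, and none did with the mouse as a replicate block. The genes that define the slow fiber did not: *Myh7*, the slow myosin heavy chain, was at 370.0 to 1488 on LFD and at 368.1 to 1121 on HFD (-0.15, SE 0.25, FDR 0.942). The slow troponins *Tnni1*, *Tnnc1* and *Tnnt1* were at 0.03, -0.17 and -0.21, with SE of 0.24 to 0.26. *Casq2*, a calsequestrin (0.60, SE 0.15, FDR 0.0802), *Ankrd2*, a stretch-responsive protein (0.71, SE 0.20, FDR 0.137), and *Actn2*, an alpha-actinin (0.21, SE 0.05, FDR 0.0817), lay between. Without HFD mouse 149 none of the 13 passed, and without LFD mouse 148 there were 4 that rose, with *Casq2* at 0.64 (FDR 0.0471), *Ankrd2* at 0.84 (FDR 0.015) and *Actn2* at 0.25 (FDR 0.00913). None of 14 genes of fast fibers passed, with a median of 0.02.

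The greatest fold change of all was that of *BC048679*, a gene known from a cDNA. It was at 82.1 to 216.1 on LFD (median 106) and at 195.6 to 366.2 on HFD (median 257). LFD mouse 148, at 216.1, was the only LFD mouse above 141.5, and 9 HFD mice lay above all LFD mice. The fold change was 2.38 (log2 difference 1.25, SE 0.15, FDR 0.000101), and without mouse 148 the log2 difference was 1.35. *Egln3*, a prolyl hydroxylase of the hypoxia-inducible factor, was at 78.6 to 146.2 on LFD (median 94.2) and at 115.6 to 231.1 on HFD (median 154), with a fold change of 1.62 (log2 difference 0.69, SE 0.13, FDR 0.0117, or 0.0937 with the mouse as a replicate block). *Tm6sf1*, a membrane protein, was at 54.1 to 103.8 (median 75.8) and 90.7 to 144.7 (median 125), with 1.57 (0.65, SE 0.10, FDR 0.00176). *Plbd1*, a phospholipase B-like protein (0.43, SE 0.08, FDR 0.00639), *Slc66a2*, a solute carrier (0.49, SE 0.11, FDR 0.0487), and *2310057M21Rik* (0.40, SE 0.08, FDR 0.0211) completed the 17. *Slc66a2* lost its FDR in 16 fits and *2310057M21Rik* in 1, that without HFD mouse 150 (0.0533).

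Further genes rose by less than the fold change of 1.3. *Dnajb4*, a cochaperone, was the only one of 24 genes of the heat shock response that rose (0.37, SE 0.06, FDR 0.00481). *Adgrl4*, a receptor of endothelial cells, rose by 0.37 (SE 0.08, FDR 0.0183). *Clic4*, an intracellular chloride channel (0.30, SE 0.07, FDR 0.0447), and *Rnf115*, a ubiquitin ligase (0.31, SE 0.07, FDR 0.0487), lost their FDR in 16 and 17 of the 20 fits without 1 mouse. A probe set without a gene name in the tables used here (14081_at) had 0.32 (SE 0.08, FDR 0.0499), lost its FDR in 15 and was at 0.055 with the mouse as a replicate block. Its label is the Entrez number to which the study assigned its probes. Gene lists were matched by name, so that this probe set is counted in none of them, whatever its function. At the limit of 0.05, *Pdlim1* and *Ccnk* stood just inside at 0.0499, and *Dhrs7c*, at 0.0568, just outside.

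Of the 12 genes that fell, *Il12a*, the p35 subunit of interleukin 12, had the greatest fold change. It was at 17.2 to 38.8 on LFD (median 20.4) and at 8.6 to 16.7 on HFD (median 13.2), without overlap. The log2 difference was -0.70 (SE 0.13, FDR 0.0101) and -0.60 (FDR 0.00562) without mouse 141, which held the 38.8. The HFD signals reached down to the median of the arrays, so that the size depends on the background. With a mean of 17.8 in the gastrocnemius *Il12a* was tested only through its higher signal in the quadriceps, and a filter on the gastrocnemius alone removed it. *Ccnk*, a cyclin that acts in transcription (-0.49, SE 0.12, FDR 0.0499), and *Mrtfa*, a coactivator of serum response factor (-0.43, SE 0.10, FDR 0.0463), were the other 2 over the fold change of 1.3. *Ccnk* was at 77.6 to 149.7 on LFD and at 60.9 to 97.4 on HFD, and *Mrtfa* at 125.1 to 219.9 and 85.0 to 154.7. They lost their FDR in 16 and 15 of the 20 fits without 1 mouse, and with the filter on the gastrocnemius alone *Ccnk* was at 0.0504 and *Mrtfa* at 0.0469.

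*Mlf1*, a gene known from a translocation in myeloid leukemia, was at 1869 to 2599 on LFD (median 2111) and at 1387 to 1968 on HFD (median 1662). It had 8 HFD mice below all LFD mice and a log2 difference of -0.34 (SE 0.06, FDR 0.00677). *Parp3*, a polymerase of ADP-ribose in DNA repair, was at 800.9 to 1034 (median 874) and 681.4 to 803.5 (median 753), with 9 HFD mice below all LFD mice (-0.25, SE 0.05, FDR 0.0136). *Mlf1* and *Parp3*, and *Il12a* where it was tested, kept an FDR under 0.05 whichever mouse was left out. *Map2k6*, a kinase that activates p38 (-0.36, SE 0.08, FDR 0.0447), *Nrep* (-0.35, SE 0.08, FDR 0.0447), *Tmem63a*, an ion channel (-0.33, SE 0.07, FDR 0.0412), and *Parm1* (-0.33, SE 0.08, FDR 0.0476) fell by less than 1.3-fold. *Sec14l1*, *1110032A03Rik* and *Timm17b*, of the import machinery of mitochondria, fell by 0.22, 0.22 and 0.19 on the log2 scale, with an FDR of 0.0478, 0.0447 and 0.0481. With the mouse as a replicate block the FDR was 0.0546 for *Tmem63a*, 0.229 for *Parm1* and 0.133 for *1110032A03Rik*.

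Muscle holds other cells, whose markers were followed in lists of their own. Of 8 tested adipocyte markers none passed, but 7 lay above 0, with a median of 0.31. Their summed signal was 14099 to 16247 on LFD and 14684 to 19282 on HFD. Most of this sum was *Car3*, at 7675 to 11699 over the 20 arrays, and *Fabp4*, at 4721 to 7960, so that it hardly reflects the other markers. Averaged over the 8 genes, the log2 signal intensity relative to the LFD mean was -0.47 to 0.47 on LFD and -0.26 to 1.75 on HFD. HFD mouse 149 had 2151 for *Adipoq*, which encodes adiponectin, where the LFD mice had 289.3 to 873.1, and 234.4 for *Cidec*, a droplet protein of fat cells, where they had 7.8 to 43.1. Without it the median was 0.18. Of the genes described above, *Cd36*, *Plin5* and *Adgrl4* kept an FDR under 0.05 without this mouse and *Lpl* did not. *Pparg*, the regulator that defines fat cells, was under the signal limit on average, at 7.8 to 19.1 over the 20 arrays. The 10 tested endothelial markers had 8 above 0 and a median of 0.12, with none passing. *Pecam1* was at 161.3 to 297.5 on LFD and at 207.0 to 333.5 on HFD (0.26, SE 0.12, FDR 0.549), and the summed signal was 1414 to 1628 and 1507 to 1923. Their part in the rise of *Cd36*, *Lpl* and *Adgrl4* was not tested. None of 7 macrophage markers (median 0.08), 8 tendon markers (median 0.08) and 11 fibroblast markers (median 0.05) passed. All 6 tested neutrophil markers had a mean under the limit of 20 in the gastrocnemius and were tested only through the quadriceps. None of the 6 passed, which says little at such low signals. Of the 6, *S100a8* and *S100a9* were at or near the array median, at 5.5 to 8.9 and 5.2 to 7.9 on LFD and 5.4 to 9.7 and 5.2 to 8.8 on HFD.

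None of the 25 tested genes that the study discusses for the type of muscle passed for diet in the gastrocnemius (median -0.04), and 4 of them had a mean of 20 or less there. Since the study picked them on these arrays, some as differing between the muscles and others, such as *Hoxc10*, as detected only, the list is not independent evidence. *Hoxd8* was at 362.3 to 761.0 on LFD and at 490.3 to 646.6 on HFD (-0.03, SE 0.10), and *Hoxd9* at 104.8 to 293.8 and 171.1 to 228.2 (-0.04, SE 0.13). *Tbx1* was at 36.0 to 205.3 and 19.1 to 53.7 (-0.45, SE 0.26, FDR 0.704), and at -0.23 (SE 0.16, FDR 0.738) without mouse 141. *Dkk3*, a member of the Dickkopf family, was at 8.9 to 70.4 and 8.1 to 14.6, where both groups lay near the array median but for mouse 141 at 70.4. *Hoxc10*, at 843.7 to 1183 on LFD and 805.2 to 939.6 on HFD, came nearest to the threshold (-0.21, SE 0.05, FDR 0.0783). *Mybph*, a myosin-binding protein, had the greatest log2 difference of these genes (0.82, SE 0.33, FDR 0.428).

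Other lists held few or no genes that passed. There were 0 of 16 for the clock, 0 of 23 for glucocorticoid and fasting response, 0 of 15 for growth control and 0 of 28 for antioxidant genes. There were 0 of 11 for fatty acid synthesis (median -0.03), 0 of 7 for cholesterol synthesis (median -0.09), 0 of 15 for the stress of the endoplasmic reticulum, 0 of 29 for the proteasome and 0 of 16 for ribosomal proteins. Collagens (0 of 15, median 0.02), matrix remodeling (0 of 27, median 0.09) and mitochondrial ribosomal proteins (0 of 68, median -0.03) held none either. Their signs differed. Log2 differences were above 0 for 8 of 15 collagens, 25 of 27 matrix remodeling genes and 18 of 68 mitochondrial ribosomal proteins. The same held for 14 of 15 genes of endoplasmic reticulum stress and 1 of 16 ribosomal proteins, against 42.8% of all tested genes.

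In the quadriceps of the same mice the diet was compared with the same test. There 3 genes rose (0.0463%) and none fell: *BC048679*, *Decr1* and *Eci2*. At an unadjusted p under 0.05 there were 316 genes (4.88%). All 3 had also risen in the gastrocnemius. In some fits that left out 1 mouse all 3 calls were lost, and in others some or all were kept. Without mouse 141 no gene passed in the quadriceps with limma (331 at an unadjusted p under 0.05), nor did any without LFD mice 142, 147, 156 and 160 or HFD mice 149 and 152, each left out alone. Without HFD mouse 144, 5 rose and 3 fell. *BC048679* was at 1.02 (SE 0.18) in the quadriceps, *Decr1* at 0.38 (SE 0.07) and *Eci2* at 0.21 (SE 0.04), each with an FDR of 0.0277. Of the 37 genes that rose in the gastrocnemius 35 had a log2 difference above 0 in the quadriceps, and all 12 that fell had one below 0. The share of all tested genes with the same sign in both muscles is not given here, so that these counts have no baseline. The gastrocnemius had a median of 0.37 over the 37 and of -0.34 over the 12, against 0.23 and -0.11 for the quadriceps. The 49 were chosen on the gastrocnemius, which favors the greater value there, and both muscles come from the same mice. For *Plin5* the quadriceps had 0.56 (SE 0.14, FDR 0.264), for *Cd36* 0.31 (SE 0.07, FDR 0.136), for *Acadl* 0.26 (SE 0.06, FDR 0.158) and for *Ech1* 0.41 (SE 0.08, FDR 0.0716). *Myom3*, at 0.17 (SE 0.28), and *Pdlim1*, at -0.03 (SE 0.21), had wide errors there.

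Whether the diet acted differently on both muscles was tested with the interaction of diet and muscle. No gene had an FDR under 0.05 with limma (118 at an unadjusted p under 0.05, 1.82%). With the mouse as a fixed block there were 0 as well (203 at an unadjusted p under 0.05, 3.13%). That fit compared the gastrocnemius minus quadriceps difference of each mouse between the diets, and is not the replicate block used above. Among the 49 genes, 8 had an unadjusted p under 0.05 in the fit without the block. The 49 were chosen by their difference in the gastrocnemius, which is itself part of the interaction. Their count can therefore not be set against the 1.82% of all tested genes. For *Clic4* the log2 difference was 0.30 (SE 0.07) in the gastrocnemius and -0.07 (SE 0.07) in the quadriceps. The FDR for the difference between the muscles was 0.934 with the mouse as a fixed block. For *2310057M21Rik* it was 0.40 (SE 0.08) and 0.04 (SE 0.09). For *Mboat7*, an acyltransferase of phospholipids, it was -0.14 (SE 0.08) and 0.30 (SE 0.08), the smallest unadjusted p of the interaction without the block.

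**Figure D5:**
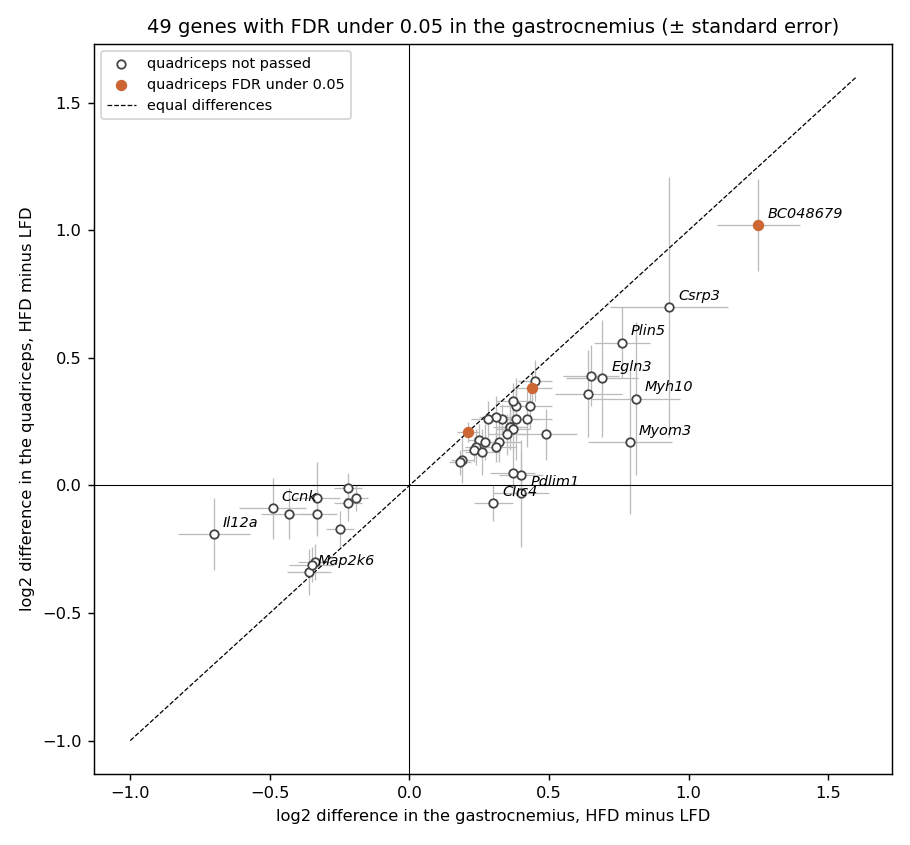
The 49 genes with an FDR under 0.05 in the gastrocnemius, with the log2 difference between HFD and LFD in the gastrocnemius on the horizontal and in the quadriceps on the vertical axis, each with its SE (dashed line, equal differences). Filled points are *BC048679*, *Decr1* and *Eci2*, and 47 of the 49 have the same sign in both muscles.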

How the data were processed

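RNA of the gastrocnemius and quadriceps of 20 mice had been hybridized to Affymetrix Mouse Genome 430 2.0 arrays. Per the paper's methods, probes were reassigned so that each Entrez gene had a single probe set, and arrays were quantile normalized and summarized by GC-RMA (no version stated). What the authors deposited are signal intensities on a linear scale. Of 16539 probe sets, 64 controls were removed. Names came from RefSeq for 15752 probe sets and from the platform annotation for 28, and 695 stayed unnamed and so are in no gene list. Log2 intensities of probe sets with a mean over 20 were compared with limma 3.58.1 in R 4.3.3, 10 HFD against 10 LFD arrays of 1 muscle, with Benjamini-Hochberg adjustment over all 6479. The interaction used all 40 arrays. The 10 arrays per group limit the precision.

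The members and gene lists were chosen with earlier results of these data known. Genes named were up to 15 differentially expressed genes in each direction by log2 difference, up to 10 further ones by FDR, up to 4 per list, the genes of muscle type and 10 of the interaction. Other list members were named after their values were seen. Mouse numbers pair the muscles, since both came from 1 animal. Deviations from the group means of the muscles of 1 mouse correlated with a median r of 0.39 on LFD (-0.07 to 0.63) and -0.069 on HFD (-0.21 to 0.43), with a consensus correlation of 0.162. Alternatives were a replicate block, array weights, other filters, other scaling, an offset of 16, trended variance, other thresholds and leaving out mice. Tested on simulated data with 100 genes changed by each fold among 6479, the test recovered 89% of those changed 1.5-fold and 100% of those changed 2-fold. The simulated noise was normal and independent between genes, without outlying mice. Smaller folds were not simulated, so that these shares do not hold for genes under 1.5-fold. Of the 49 genes, 8 that rose and 1 that fell were over 1.5-fold, and 29 were under 1.3-fold. More genes were changed in the simulation than the 49 found, which makes recovery at a given FDR easier.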

Additional observations from a re-analysis of the deposited data

Results flagged for a closer look

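Single mice lay far from the other 9 of their diet in 19 of 148 groups of 1 gene and 1 diet (12.8%), where chance gives about 1 in 20, over 74 genes checked. LFD mouse 148 was high in 6 genes that rose on HFD. It had 216.1 for *BC048679* (next highest LFD mouse 141.5), 438.8 for *Myh10* (242.3), 2275.0 for *Ppp1r27* (1657.1), 350.8 for *2310057M21Rik* (274.4), 649.3 for *Eci2* (599.6) and 66.2 for *Slc66a2* (52.2). LFD mouse 141 was high in *Il12a* with 38.8 (next 23.6), *Tbx1* with 205.3 (56.3), *Dkk3* with 70.4 (16.7) and *Hoxc9* with 34.6 (25.0).

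HFD mouse 149 was high in 3 genes expressed in adipose tissue, with 234.4 for *Cidec* (next highest HFD mouse 54.1), 79.2 for *Cdo1* (21.3) and 66.4 for *Adig* (34.1). Among the other genes that rose or fell, HFD mouse 158 had 224.9 for *Acot2* (191.8), HFD mouse 157 the lowest HFD signal of *Etfdh* with 2121.4 (next lowest 2284.3), and LFD mouse 142 had 2598.5 for *Mlf1* (2249.0). Among the genes of muscle type, LFD mouse 142 had 151.7 for *Slc15a5* (79.4), LFD mouse 155 had 95.1 for *Aldh1a2* (60.8) and HFD mouse 151 had 1333.8 for *Mybph* (925.4). What set these mice apart was not tested.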

How the results depend on the processing

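None of the 49 genes reversed under any alternative that tested it, and mitochondrial beta-oxidation held 9 or 10 genes that rose whichever mouse was left out. Differentially expressed genes higher on HFD, 17 as reported, were 11 with all arrays in 4 groups, both with the mouse as a replicate block and without it, 32 with array weights, 34 without LFD mice 141 and 148 (chosen after seeing the data), 37 at FDR alone and 8 over 1.5-fold. Those lower, 3 as reported, were 17 with array weights, 1 when the filter used the gastrocnemius alone, 1 without a filter, 6 without both mice, 12 at FDR alone and 1 over 1.5-fold. At FDR alone, 75 rose and 62 fell with array weights, 7 fell with centred arrays and 3 without a filter. Of the 49, 36 kept their FDR under the replicate block, 39 without it, 48 with array weights and 30 without a filter. In fatty acid uptake 1 gene rose in both 4-group fits, without a filter, with repeated quantile normalization and without both mice. In the carnitine shuttle 2 rose with array weights, quantile normalization, trended variance and without both mice, and in peroxisomal oxidation 3 with array weights. At the lipid droplet 4 rose with array weights, 3 without both mice and 2 with centring, a filter over 50, no filter, quantile normalization or trended variance. Of slow fibers 0 rose in both 4-group fits and without a filter, 3 with array weights, 3 without both mice and 2 with centring or trended variance. The quadriceps held 4 differentially expressed genes in the 4-group fit without the block, against 1. The interaction gave 0 throughout. Leaving out 1 mouse gave 12 to 34 higher and 1 to 5 lower, or 26 to 63 and 3 to 16 at FDR alone, and 29 of the 49 kept their FDR in all 20 fits. For the quadriceps, left out likewise after seeing the data, the differentially expressed genes were 0 to 4. The highest upward counts came without LFD mouse 148. Over all 20 fits without 1 mouse, genes that rose were 1 to 2 for uptake, carnitine and peroxisomes, 1 to 3 for lipid droplets and 0 to 4 for slow fibers. The cause of these shifts was not tested. Signals near the array median leave the size of a change uncertain.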
